A study of Rattus norvegicus with 15 samples.

Results

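The comparison described here sets whole blood of rats sampled 72 h (3 days) after modelling of deep venous thrombosis against whole blood of sham rats. It covers every feature with a normalised read count of at least 10 in 3 or more of the 3 sham and 3 libraries at 72 h, which was 9941 of the 17599 features in the table (56.5%). Of these, 7931 carry annotated gene IDs and 2010 are gene models assembled from the reads. The animals were males of the Sprague-Dawley stock, which is outbred, aged 6 to 8 weeks and weighing 250 to 300 g. Sham libraries are labelled 0 h after modelling. The sources used here do not describe how the clot was induced or what the sham procedure was. The series also holds 3 libraries each at 1 h, 6 h and 12 h. The run label in the titles is A&B for sham, 1 h and 72 h, so both groups compared have it, and C for 6 h and 12 h. Replicates are numbered with no mention of animals, so the p-values speak for the spread among these libraries, and part of it may be technical.

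Deep venous thrombosis is the formation of a clot of fibrin, platelets and blood cells in a deep vein. Neutrophils, monocytes and platelets take part in the early clot, and monocytes and macrophages are known for their role in the later removal and remodelling of it. Whole blood RNA comes from all circulating cells at once, red cell precursors included, so that fewer cells of a type and less RNA per cell cannot be told apart in it. No gene name stands beside an ID in the files, and the reference table matched 0 IDs. The 26 gene lists drawn up for blood cell types and pathways could therefore not be read (0 lists tested), and the labelled tissue could not be checked against marker genes. Features are described by abundance, kind and direction, and 4 of them by ID.

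No feature passed the test at 72 h. In limma, a linear model with a spread shared across features, 0 of 9941 features (0%) had a Benjamini-Hochberg adjusted p under 0.05, and the lowest adjusted p was 0.264. At an unadjusted p under 0.05 there were 742 features (7.46%), of which 372 (3.74%) were higher and 370 (3.72%) lower at 72 h. The quasi-likelihood test of edgeR on whole reads recovered from the values also called 0, with 671 at an unadjusted p under 0.05. DESeq2 on the same reads called 26 features (0.278% of the 9344 it adjusted), 17 higher and 9 lower, with an adjusted p under 0.05.

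The size of difference that the data could bound varied with abundance. Over all tested features the median standard error of the log2 difference was 0.48, and the median half-width of its 95% interval, unadjusted for the number of features, was 1.02 log2 units or 2.02-fold. For 1905 features (19.2%) the whole interval lay within 2-fold of sham in both directions, and for 7488 (75.3%) it lay within 4-fold. When features were ranked by abundance and divided into 4 equal parts, the lowest part had mean values of 5.54 to 24.2, and 0.644% of its intervals lay within 2-fold. In the third part, with mean values of 53.9 to 150.1, 36.2% did, and in the most abundant part 27.1% did. For most features the interval thus took in differences of 2-fold or more, and the count of 0 does not show equal levels.

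The log2 differences centred near 0. Their median was -0.05, and the middle range between the lower and upper quartile ran from -0.42 to 0.34. A difference of at least 1 log2 unit, or 2-fold, was seen in 592 features that were higher (5.96%) and 645 that were lower (6.49%) at 72 h. In 1829 features (18.4%) the 3 libraries at 72 h did not overlap the 3 sham libraries. They were higher at 72 h in 808 (8.13%) and lower in 1021 (10.3%), so that 44.2% of the separated features were higher. When every library was scaled to the same total after removal of the 5 dominant features, 33.5% of the separated features were higher (519 against 1029), and the median log2 difference of all features was then -0.41. The separated features that were higher had a median log2 difference of 0.92 and those that were lower had -0.72. The gap between the groups was at least 2-fold in 33 of the former and 21 of the latter.

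**Figure D1:**
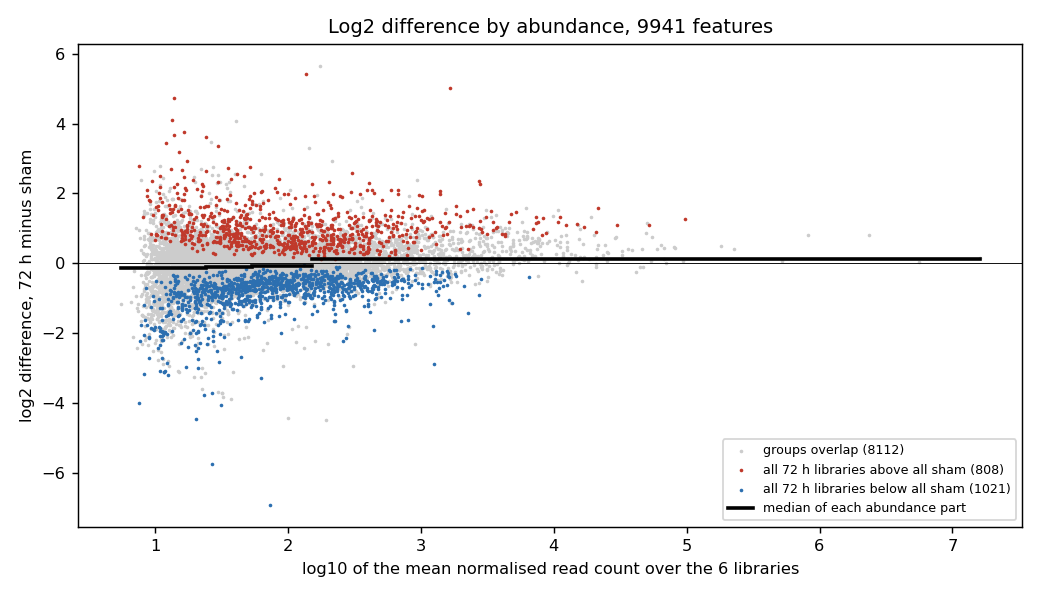
Each point is 1 of 9941 features, with the log10 of its mean normalised read count over the 6 libraries on the x axis and its log2 difference (72 h minus sham) on the y axis; red and blue points are the 808 and 1021 features whose groups do not overlap, and black bars are medians of 4 equal abundance parts. The median goes from -0.15 in the lowest part to 0.11 in the highest.

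Abundant features tended to be higher and scarce ones lower at 72 h on the deposited scale. The median log2 difference was -0.15, -0.10, -0.07 and 0.11 from the least to the most abundant part. Abundance here is reads per feature, with no correction for length. Among the 100 most abundant features, 90 had a mean log2 value above sham, with a median difference of 0.47. Of these 100, 16 were at least 2-fold higher, 0 were at least 2-fold lower, and 14 separated the groups, all higher. None passed the test, and 3 had an unadjusted limma p under 0.05. Single libraries moved these values. Without sham replicate 3 the median was 0.23, with 70 of the 100 above sham and 8 at least 2-fold higher. Without 72 h replicate 3 it was 0.29, with 9 at least 2-fold higher. Without 72 h replicate 2 it was 0.78, with 28, and without sham replicate 1 it was 0.66, with 26. With TMM scaling, which uses another factor per library, 88 of the 100 lay above sham, with a median of 0.45. With equal totals after removal of the 5 dominant features, 60 of the remaining 95 did, with a median of 0.10. That median lay 0.51 above the median of all features, as it did on the deposited scale. Quantile normalization gives every library the same distribution of values, which removes such a tilt by construction, and 47 lay above sham after it. With the log2 factor of each library (described next) as a covariate in the fit 57 did, with a median of 0.07.

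The library factor, the number by which the authors divided the reads of each library, moved with this tilt. It was 1.00, 1.28 and 1.55 in sham replicates 1, 2 and 3 and 0.760, 1.57 and 0.726 in 72 h replicates 1, 2 and 3. Replicates 1 and 3 at 72 h lay below all sham libraries and replicate 2 lay above them. For the 100 most abundant features, the median log2 deviation of each library from the mean of the 6 was 0.12, -0.17 and -0.68 in sham and 0.52, -0.37 and 0.58 at 72 h, in replicate order. Within each group the deviation fell as the factor rose. The lowest factors, 0.726 and 0.760, were both at 72 h, so at that end factor and group cannot be told apart. The part of the division by the factor in these deviations was not tested. The mean factor was 1.28 ± 0.272 in sham and 1.02 ± 0.478 at 72 h (SD, n = 3, two-sided exact permutation p = 0.6, adjusted 0.72 over 12 tests). The smallest p that this test allows for 3 against 3 libraries is 0.1, which lies above the threshold used here. The test could therefore not have passed for a difference of any size, and no conclusion is drawn from it.

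**Figure D2:**
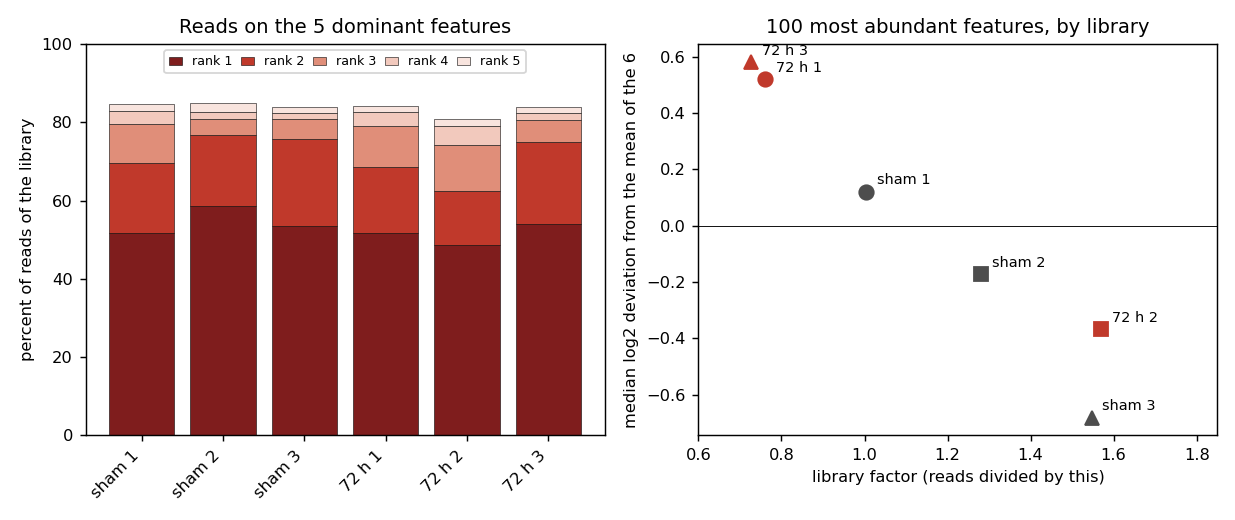
Left, stacked bars give the percent of reads of each library on the 5 dominant features, which together take 80.8 to 84.9%. Right, each point is a library, with its library factor on the x axis and the median log2 deviation of the 100 most abundant features from the mean of the 6 libraries on the y axis; 72 h replicates 1 and 3 stand at the upper left and sham 3 and 72 h replicate 2 at the lower right.

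In the pairs with replicate 2, libraries at 72 h were less alike than sham libraries. The median absolute log2 difference between 2 libraries over all tested features was 0.35, 0.41 and 0.40 for the 3 sham pairs. At 72 h it was 0.39 between replicates 1 and 3, 0.56 between replicates 1 and 2, and 0.60 between replicates 2 and 3. Replicate 2 at 72 h differed from the sham libraries by 0.38 to 0.43, and replicates 1 and 3 differed from them by 0.49 to 0.67. The median standard deviation of a feature on the log2 scale was 0.35 in sham and 0.46 at 72 h, and it was larger at 72 h for 6358 features (64.0%). At 1 h, 6 h and 12 h the median was 0.41, 0.49 and 0.70, so a larger spread than in sham was not particular to 72 h. The part of the library factor in these distances was not tested.

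**Figure D3:**
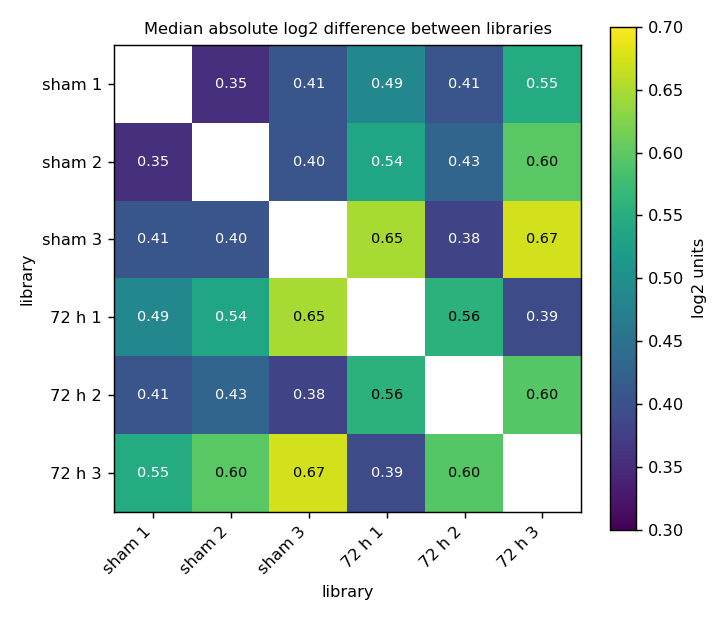
Each cell gives the median absolute log2 difference between 2 libraries over 9941 features. The 72 h replicate 2 is nearer to the 3 sham libraries (0.38 to 0.43) than to the other 72 h libraries (0.56 and 0.60).

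Replicate 2 at 72 h was also the library nearest to sham in most separated features. Of the 808 that were higher, it was the lowest of the 3 libraries at 72 h in 508 (62.9%), against 187 for replicate 1 and 113 for replicate 3. Of the 1021 that were lower, it was the highest of the 3 in 598 (58.6%). Without it, 4436 features (44.6%) did not overlap between the groups, where leaving out any other sham or 72 h library gave 24.4 to 29.9%. limma then still called 0 features, with 1155 at an unadjusted p under 0.05 in place of 742. The 2 libraries that remain at 72 h both have a lower factor than every sham library.

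Most reads fell on 5 assembled features in both groups, and the share of each overlapped between the groups. The most abundant took 51.6, 58.6 and 53.5% of reads in sham and 51.7, 48.7 and 54.1% at 72 h, in replicate order. The groups overlapped, with 54.5% ± 3.60 in sham and 51.5% ± 2.69 at 72 h (SD, n = 3, exact permutation p = 0.5, adjusted 0.667). For the second the share was 19.5% ± 2.44 in sham against 17.2% ± 3.59 at 72 h (SD, n = 3, exact permutation p = 0.4, adjusted 0.6). The third took 9.97, 4.12 and 5.11% in sham and 10.4, 11.8 and 5.54% at 72 h. Within each group 1 library went with the other group, sham replicate 1 on the high side and 72 h replicate 3 on the low side.

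The fourth dominant feature took 3.33, 1.74 and 1.5% in sham and 3.50, 4.77 and 1.75% at 72 h. The exact permutation p was 0.2 for the third and for the fourth (adjusted 0.6 for both), where the smallest p that 3 against 3 libraries allow is 0.1. The reads on the third per read on the fourth came to 2.92 ± 0.525 in sham and 2.87 ± 0.366 at 72 h (SD, n = 3, exact permutation p = 0.9, adjusted 0.982). For the fifth it was 1.87% ± 0.391 in sham against 1.63% ± 0.138 at 72 h (SD, n = 3, exact permutation p = 0.4, adjusted 0.6). All 5 together held 84.5% ± 0.528 of sham reads against 82.9% ± 1.86 at 72 h (SD, n = 3, exact permutation p = 0.2, adjusted 0.6). The value of 80.8% in 72 h replicate 2 was the lowest of the 6.

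Total reads were 31.0 to 37.5 M in sham and 29.2 to 31.0 M at 72 h (M stands for mega-reads), and 4.67 to 5.96 M of the reads in these 6 libraries lay outside the dominant features. Reads were seen on 12983 to 13555 features in sham and on 12047 to 13709 at 72 h. Of the tested features, 9863 to 9892 had reads in a sham library and 9720 to 9894 in a library at 72 h. The counts of features with reads varied more at 72 h than in sham and total reads varied less, and replicate 2 stood above the other 72 h libraries in each of these counts. All 12 quantities compared between the groups by exact permutation had an adjusted p of 0.6 or more. With 3 libraries per group none of these tests could have passed the threshold, so they do not show equal levels.

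Assembled and annotated features are described separately here. Among assembled features, 10.6% were at least 2-fold higher and 5.87% at least 2-fold lower at 72 h. Among annotated features the shares were 4.77% and 6.64%. The median log2 difference was 0.06 for assembled and -0.07 for annotated features. Assembled features made up 29.6% of the separated features that were higher, 21.4% of those that were lower and 20.2% of all tested. They are also more abundant, with a median value of 132.8 against 46.6. From the least to the most abundant part, 12.8, 13.6, 7.13 and 10.7% of assembled features were at least 2-fold higher. Of annotated features, 6.69, 3.54, 2.57 and 6.64% were. At least 2-fold lower were 15.1, 6.82, 4.75 and 3.10% of assembled and 15.6, 5.70, 1.93 and 1.55% of annotated features. With the library factor as a covariate the medians were -0.01 and -0.02, and the assembled features at least 2-fold higher and lower numbered 126 and 100 in place of 214 and 118. Without sham replicate 3 the assembled median was -0.0041. No test was made of this difference between kinds.

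By the rule for printing IDs, the features shown are the annotated ones with the largest differences in each direction among those with groups that do not overlap and a mean of at least the median of all tested features, 53.8. There were 325 such features that were higher and 429 that were lower. They were picked for their difference, and none passed the main test. Each value below is a normalised read count, that is, reads divided by the library factor.

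ENSRNOG00000028415 had 134, 109 and 22.0 in sham and 725, 152 and 673 at 72 h, in replicate order. Every library at 72 h lay above every sham library, but replicate 2 at 72 h was close to sham replicate 1, and sham replicate 3 was well below the other sham libraries. The log2 difference was 2.59 (95% interval 1.02 to 4.17, limma adjusted p = 0.530), and 0 of 28 settings tried called it. The 1 h mean was 423 ± 88.7, the 6 h mean 792 ± 512 and the 12 h mean 1085 ± 665 (SD, n = 3), and every library of these times was above every sham library. The 72 h level differed from the 1 h level by 0.01 log2 units (limma adjusted p = 0.998).

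ENSRNOG00000032401 was among the more abundant features, 244th of 9941. Its values were 1213, 1202 and 430 in sham and 6334, 3348 and 3974 at 72 h. The lowest library at 72 h was more than 2-fold above the highest sham library. The log2 difference was 2.36 (95% interval 1.16 to 3.55, limma adjusted p = 0.406, edgeR adjusted p = 0.491). DESeq2 called it (adjusted p = 0.0129), as did limma with the library factor as a covariate (adjusted p = 0.0275), and 6 of 28 settings did in all, with adjusted p-values from 0.0117 to 1.00 over the settings. One of the 6 left out 12 h replicate 3 (limma adjusted p = 0.0459). At other times it had 3153 ± 1315 (1 h), 3879 ± 1494 (6 h) and 2772 ± 1462 (12 h) (SD, n = 3). Its 12 h replicate 3, with 1096, lay within the sham range.

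ENSRNOG00000008376 had 69.8, 284 and 87.9 in sham, from 70, 363 and 136 reads, and 0 reads in all 3 libraries at 72 h. With 3 reads per library as the level that a count of 0 allows, the mean was at least 44.2-fold lower at 72 h. The sham mean was 147 ± 119 (SD, n = 3), with replicate 2 far above the others, so this bound does not hold for each sham library. It met the filter on low values through the sham libraries alone, so it had to differ, and its p-values and calls are a description. Its limma p was the lowest of the comparison (limma unadjusted p = 4.51e-05, adjusted p = 0.264). DESeq2 called it (adjusted p = 2.02e-07), as did limma on just the 6 libraries compared (adjusted p = 0.00662), and 8 of 28 settings did in all, with adjusted p-values from 2.02e-07 to 1.00. The feature was also at 0 reads in 1 h replicate 1, without which limma called it (adjusted p = 9.03e-07), as it did without 1 h replicate 2 (adjusted p = 0.0497). Where present at 1 h it had 75.6 and 72.3, and it had 155 to 357 in the 6 libraries at 6 h and 12 h. It was thus at 0 in 4 of 15 libraries and at 69.8 or more in the other 11.

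ENSRNOG00000020136 had 70.8, 174 and 66.6 in sham and 17.1, 49.0 and 0 at 72 h. The log2 difference was -3.29 (95% interval -5.32 to -1.27, limma adjusted p = 0.530), and 0 of 28 settings called it. It was lower still at 1 h, with 2.80 ± 1.01 (SD, n = 3), and the difference of 72 h from 1 h was 1.38 log2 units (limma adjusted p = 0.711). At 6 h and 12 h, under the other run label, it had 127 ± 20.4 and 206 ± 87.0 (SD, n = 3). The 3 libraries at 72 h differed widely among themselves.

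**Figure D4:**
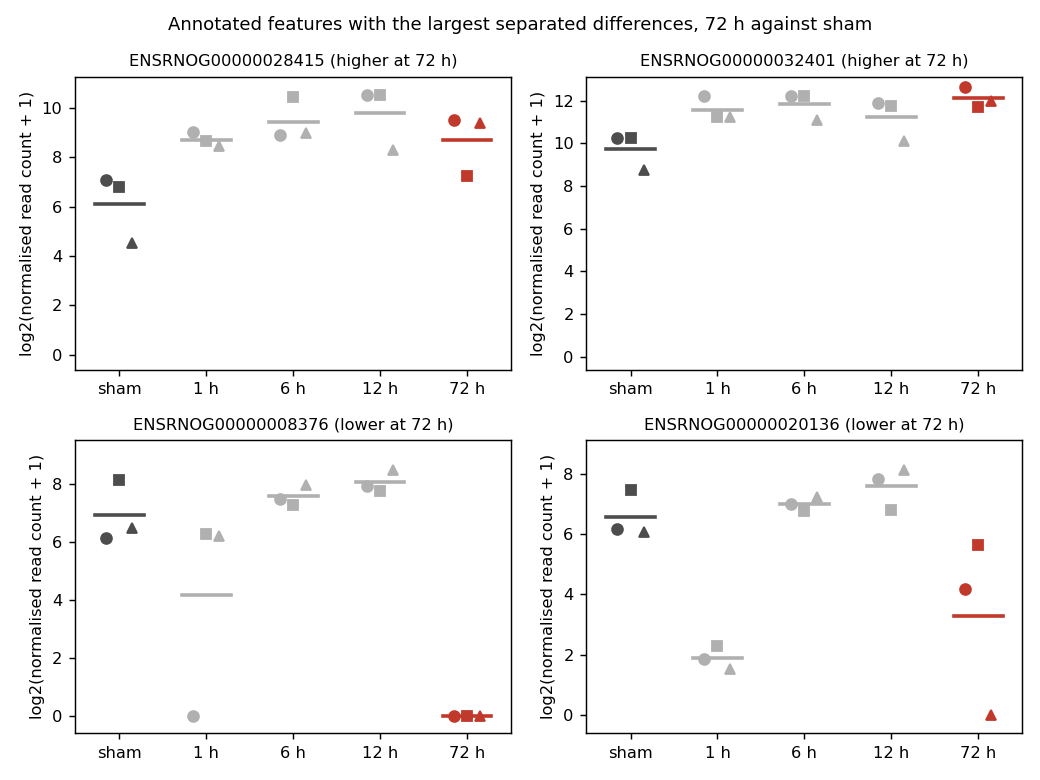
Points are the log2(normalised read count + 1) of each library, with circles, squares and triangles for replicates 1, 2 and 3 and bars for group means; sham is dark grey, 72 h red and the other times light grey. In all 4 features the 72 h libraries lie on 1 side of sham, and ENSRNOG00000008376 is at 0 reads in all 3 libraries at 72 h.

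In addition to ENSRNOG00000008376, 2 tested features had 0 reads in all 3 libraries at 72 h and 1 had 0 reads in all 3 sham libraries, all of them assembled models. These too met the filter through 1 group alone (104 of the tested features did in all), so their differences are no support for a change. The one at 0 in sham had 36.8, 31.8 and 13.8 at 72 h, at least 11.3-fold higher by the mean (limma adjusted p = 0.541). The others had 45.9, 67.2 and 47.2 in sham, at least 16.0-fold lower at 72 h by the mean (limma adjusted p = 0.570), and 14.0, 14.1 and 17.5, at least 4.55-fold lower (limma adjusted p = 0.602). The former had the lowest adjusted p of DESeq2 (1.36e-17), though it was at 0 in 9 of the 15 libraries. It was also called by limma on just the 6 libraries compared (adjusted p = 0.0484) and with array weights (adjusted p = 0.0218). These calls are a description. The 3 assembled features were also at 0 in 3 to 6 of the 9 libraries at other times, so 0 reads were not particular to the group. Over the whole table, untested features included, 28 had reads in all 3 libraries at 72 h and in no sham library, and 78 the reverse. The median of these held 11.5 reads in all 3 libraries together.

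How many features passed depended on the scaling and on how the spread was estimated. limma called 10 features (0.101%) when run on just these 6 libraries, 6 higher and 4 lower. It called 31 (0.312%) with the library factor as a covariate on the log2 scale, 24 higher and 7 lower, and 5 (0.0503%) after quantile normalization. With array weights, which give less weight to libraries far from their group, it called 206 (2.07%), 124 higher and 82 lower. Without 12 h replicate 3, which has the highest library factor of the series and is no part of the comparison, it called 15. All 26 features called by DESeq2 were also called with array weights, and all 26 separated the groups.

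A small set recurred over these fits. Of 211 features called in any of 9 such settings, 157 were called in 1 only and 11 in at least 5, a cutoff chosen after the values were seen. Each of the 9 called features. Settings that called no feature, the main test and edgeR among them, are left out of this count. Also left out is the setting with equal totals after removal of the dominant features, which called 1. So are those without sham replicate 1, 72 h replicate 3, or 1 h replicate 1 or 2, which called 1 to 3 each. Of the 11, 5 were higher and 6 lower at 72 h, 7 were annotated, and all 11 separated the groups. In 3 of the 11 the filter was met through 1 group alone, which fixes the separation. The 5 that were higher had log2 differences of 1.94 to 3.35 and the 6 that were lower had -1.81 to -6.92. ENSRNOG00000032401 and ENSRNOG00000008376 are among them. The 9 settings use the same 6 libraries, so recurrence is no independent support, and the 11 had limma adjusted p-values of 0.264 to 0.537 and edgeR adjusted p-values of 0.283 to 0.564.

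**Figure D5:**
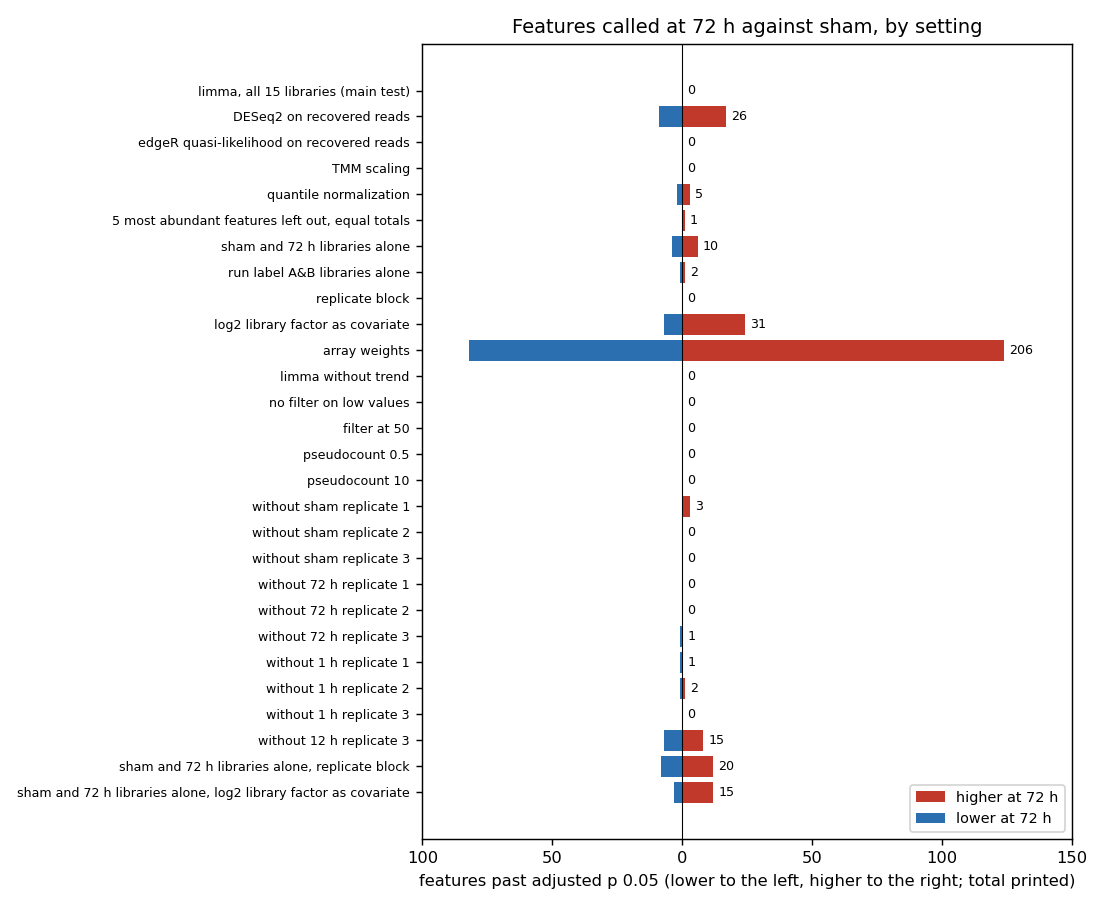
Bars give the number of features past adjusted p 0.05 at 72 h against sham in each setting, higher to the right and lower to the left, with the total printed. The main test stands at 0 and array weights at 206.

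The feature called in the most of the 9 settings was an assembled model, called in 8 of them and in 8 of the 28 settings tried in all. It had 144, 136 and 127 in sham and 713, 385 and 573 at 72 h, so that the lowest 72 h library lay well above the highest sham library. The log2 difference was 1.99 (SE 0.460, limma adjusted p = 0.406, with the covariate 0.0365, 0.00632 to 1.00 over the settings). The sham libraries were close to each other, and at 1 h the mean was 239 ± 56.0 (SD, n = 3), between sham and 72 h. The next, an annotated feature called in 7 of the 9, had 249, 592 and 449 in sham and 63.2, 103 and 93.6 at 72 h. Its log2 difference was -2.24 (SE 0.477, limma adjusted p = 0.343, with the covariate 0.0369, 0.00632 to 1.00 over the settings), and its mean at 1 h was 267 ± 54.7 (SD, n = 3). Both were singled out after their values were seen.

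Against 1 h, the other time with the run label of sham, 2 features (0.0201%) passed at 72 h, both higher. The count was 1 in edgeR and 80 in DESeq2, and it was 0 without 72 h replicate 3 or with equal totals after removal of the dominant features. It was 1 without 72 h replicate 1 or 2, sham replicate 2 or 3, or 1 h replicate 3, 4 without sham replicate 1 and 14 without 1 h replicate 1. An assembled feature had 27.8, 19.4 and 22.5 at 1 h and 112, 117 and 123 at 72 h, 2.30 log2 units apart (SE 0.284, limma adjusted p = 0.00456). Its sham values of 63.8, 84.4 and 64.0 lay between, and its difference at 72 h from sham was 0.73 (limma adjusted p = 0.602). An annotated feature had 278, 111 and 106 at 1 h and 813, 982 and 1031 at 72 h, 2.65 log2 units apart (SE 0.417, limma adjusted p = 0.0465). Sham had 496, 821 and 656, overlapping 72 h, with a difference of 0.54 (limma adjusted p = 0.774). The groups did not overlap in 17.3% of features against 1 h, compared with 18.4% against sham; both comparisons share the 72 h libraries.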

How the data were processed

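The members and gene lists of this comparison were chosen with earlier results of these data known. Per the labels' protocols, blood was drawn into PAXgene tubes, the library input was 1 ug of RNA and reads were pairs of 150 bp. Bowtie 0.12.2 and the build Rnor_6.0 are named, without their role, per the submitters' processing notes. The sources used here name no counting tool, annotation or strand setting, so reads of near-identical or overlapping models cannot be told apart. The deposited values are a signal: the authors divided the reads of each feature by 1 number per library. This reading rests on the values alone: 100% were within 0.01 of a whole multiple of 1 step in each library. The number matched, within 2.5e-08% in every library, a median-of-ratios factor recomputed from the recovered reads. That factor is the median, over 8965 features with reads in all libraries, of the reads relative to their geometric mean over libraries. In sham replicate 1 the step is near 1 and the recovery is less well tested.

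Two-sided tests used limma 3.58.1 under R 4.3.3, with its trend and robust options, on log2(value + 1) over all 15 libraries in 5 groups, with features of at least 10 in 3 of the 6 libraries compared. This scale understates the change of low features. edgeR 4.0.16 and DESeq2 1.42.0 were run on recovered reads. The limma code was tested on simulated data. IDs were printed by a rule: annotated, groups that do not overlap, mean at or above the median of tested features, the 2 largest differences each way. Shares were compared by two-sided exact permutation tests. Intervals on differences cover the spread between these libraries only. Run label is the same in both groups. Circular RNA was not analysed here.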

Additional observations from a re-analysis of the deposited data

Results flagged for a closer look

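The difference from sham was not the same at 72 h and at 1 h for 2 features, by the direct test of 72 h against 1 h in limma, in which the sham libraries cancel. For an assembled feature 72 h lay 2.30 log2 units above 1 h (adjusted p = 0.00456), and all 3 libraries at 72 h were above all 3 at 1 h. For an annotated feature 72 h lay 2.65 log2 units above 1 h (adjusted p = 0.0465), again with no overlap. The number of such features was 1 in edgeR, with quantile normalization, with a replicate block, without a filter or with a pseudocount of 0.5, and 0 without 72 h replicate 3 or with equal totals after removal of the dominant features. It was 80 in DESeq2 and 14 without 1 h replicate 1. Groups of 3 libraries are too small for a test of single outlying samples.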

How the results depend on the processing

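At 72 h against sham the count of 0 turned into 26 with DESeq2, 5 with quantile normalization, 1 with equal totals after removal of the dominant features, 10 with the sham and 72 h libraries alone, 2 with run label A&B alone, 31 with the library factor as a covariate and 206 with array weights. Added after the data were seen were the 6 libraries alone with the covariate (15) or the block, and the omission of 12 h replicate 3 (15) or of a 1 h library. Leaving out a sham, 72 h or 1 h library gave 0 to 3 (3 without sham replicate 1, 1 without 72 h replicate 3 or 1 h replicate 1, and 2 without 1 h replicate 2). The count was 0 in 13 settings, 5 of these leave-outs among them. With the replicate number as a block the count was 0 against sham and 1 against 1 h, and it was 20 against sham in the 6 libraries alone, the added setting. Deviations of same-numbered libraries correlated by -0.11 to 0.07 and those of differently numbered ones by -0.15 to 0.22, so no sign of pairing was seen. With 3 libraries per group this cannot exclude pairing. Against 1 h the 2 calls became 80 (DESeq2), 1 (edgeR), 1 (quantile normalization), 0 (equal totals), 41 (run label A&B alone), 199 (covariate), 309 (array weights), 1 (no filter), 1 (pseudocount 0.5) and 4 (pseudocount 10), with 0 to 14 on leaving out a sham, 72 h or 1 h library (14 without 1 h replicate 1) and 40 without 12 h replicate 3. Separated features numbered 1163 with a minimum value of 50 and 2427 to 4436 with a library left out, where fewer libraries separate more easily. The cause of the other changes was not tested. None of the 4 features printed by ID changed direction in any setting. Depth limits the least abundant features most.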

Other observations

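Some tested features had 0 reads in 1 library and a value of at least 50 in another library of the same group. There were 42 of these at 72 h and 18 in sham. Assembled models made up 64.3% of those at 72 h and 77.8% of those in sham, against 20.2% of all tested features. At 72 h replicate 1 was at 0 for 25 of the 42, replicate 2 for 8 and replicate 3 for 16, and in sham replicates 1, 2 and 3 were at 0 for 3, 9 and 9 of the 18. The highest value beside a library at 0 was 2079 at 72 h and 1428 in sham. An annotated feature with 0, 0 and 576 at 72 h had a mean of 190 ± 44.3 in sham (SD, n = 3), 0 in all 3 libraries at 1 h, and a 6 h mean of 521 ± 145 (SD, n = 3). Its difference from sham had a limma adjusted p of 0.642 with all libraries and 4.50e-06 without 72 h replicate 3. It was singled out after its values were seen.

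Outside the dominant features, the 100 most abundant of the rest took 57.4, 54.0 and 48.5% of the remaining reads in sham and 59.8, 52.0 and 59.9% at 72 h, in replicate order (exact permutation p = 0.3, not adjusted). Annotated features took 7.80, 7.84 and 8.81% of all reads in sham and 8.12, 10.1 and 8.26% at 72 h (exact permutation p = 0.5, not adjusted).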
